A study of Mus musculus with 8 samples.

Results

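The IL-12 family and interferon gamma axis was followed as 10 genes of hepatic macrophages: the cytokine subunits Il12a, Il12b, Il23a, Il27 and Ebi3, the IL-12 receptor chains Il12rb1 and Il12rb2, interferon gamma itself (Ifng), and its receptor chains Ifngr1 and Ifngr2. They were chosen by gene symbol, and 10 of 10 were found among the 24786 symbols of the count files. Messenger RNA had been sequenced from the livers of C57BL/6 mice as 8 libraries that form 4 groups of 2. Both Kupffer cells, the liver's own resident macrophages, and MoM, macrophages derived from monocytes, were taken from transgenic animals (TG; genotype dnTGFβRII) and from wild-type (WT) animals. The transgene is a dominant-negative form of TGF-β receptor II that, as known of this strain, is driven in T cells by the CD4 promoter, and the series uses it as a model of cholangitis, an inflammation of the bile ducts. The TG macrophages are therefore cells of a host whose T cells are altered. The labels give no age, no sex and no statement that replicates came from separate animals, so p-values measure only the spread between these libraries, which may be technical.

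Cytokines of the IL-12 family are made of 2 chains that meet in different pairs. Il12a and Il12b form IL-12, Il23a and Il12b form IL-23, and Il27 and Ebi3 form IL-27. Macrophages and dendritic cells secrete them. IL-12 binds Il12rb1 and Il12rb2 on T cells and natural killer (NK) cells and drives these cells to make interferon gamma, which in turn acts on macrophages through Ifngr1 and Ifngr2 and switches on genes for antigen presentation and defence. In published work on this mouse strain, loss of the Il12b product reduced the cholangitis.

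Levels are given as CPM, a gene's count relative to its library's total after scaling by edgeR's TMM method, and as mean ± SD with n = 2 libraries where a group is summarised. Libraries held 26190194 to 30308132 counts. The limit that a count of 0 allows, 3 counts, thus equalled 0.0926 to 0.113 CPM (counting error only, with each count taken as independent). The Kupffer labels fit the 10 Kupffer markers, which summed to 14644 to 28347 CPM in the Kupffer libraries and to 453 to 704 CPM in 3 of the 4 MoM libraries. MoM WT replicate 1 stood apart with 9214 CPM of these markers. Kupffer TG replicate 2 and MoM WT replicate 1 also carried the most endothelial RNA (8 markers, 7722 and 4819 CPM in sum, against 518 to 2162 CPM elsewhere). Neutrophil markers (8 genes) summed to 3520 CPM in MoM TG replicate 2 and to at most 76.9 CPM in any other library. Monocyte markers (10 genes) summed to 4317 CPM in MoM TG replicate 2 and to 984 to 2331 CPM in the other MoM libraries. In such bulk samples, more cells of a type and more RNA per cell cannot be told apart. Tgfbr2 stood at 174 to 349 CPM over the 8 libraries, and gene counts do not separate the transgene from the endogenous gene.

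Across the axis, the receptor gene Il12rb1 showed the cleanest genotype difference: its mean was 11.6-fold higher in TG than in WT Kupffer cells (17.7 ± 3.77 against 1.52 ± 0.119 CPM). Ifng and Il12rb2 were also higher in TG than in WT in both subsets, without overlap of the libraries. For Il12rb2 in MoM the separation was slight, as WT replicate 2 (21.4 CPM) nearly reached TG replicate 2 (21.8 CPM). The fitted log2 fold change there, 0.81 ± 0.91 (SE), was smaller than its SE. Il12b and Il12a were mainly found in MoM, Il27 was lowest in WT MoM, and Ebi3 was nearly even over the 8 libraries. The 10 genes all passed the filter on low counts, Il12a through its MoM libraries alone. No member was called by edgeR's quasi-likelihood test (adjusted p below 0.05 over 15254 genes) in any of the comparisons. Of all genes, 0.00% were called for TG against WT in Kupffer cells, 0.00% for TG against WT in MoM, 1.17% for MoM against Kupffer cells in WT, 2.50% for MoM against Kupffer cells in TG and 0.00% for the difference of the genotype effects. Il12a is left out of the counts that follow, because a gene admitted by the MoM libraries alone had to differ from Kupffer cells. At an unadjusted p below 0.05 the other 9 members numbered 3, 2, 6, 3 and 2 in the same order, where 5.94%, 6.47%, 25.4%, 25.4% and 6.42% of all genes passed. DESeq2 called 2, 0, 5, 1 and 1 of the 9, and 1.89%, 1.00%, 18.4%, 17.4% and 0.288% of all genes with an adjusted p.

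**Figure D1:**
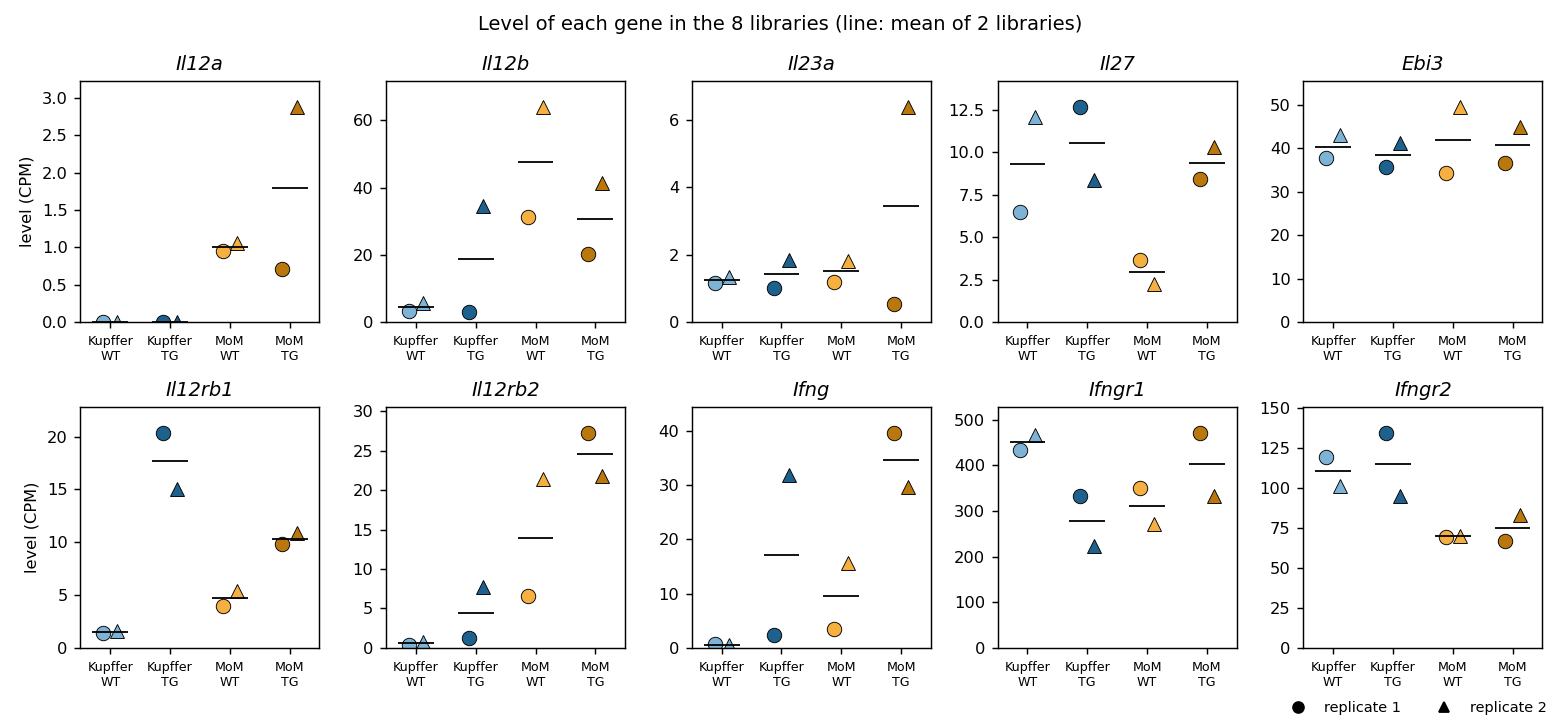
Level in CPM (vertical axis, linear, own scale for each gene) of the 10 genes in the 4 groups (horizontal axis); each point is 1 library, circles being replicate 1 and triangles replicate 2, and the line is the mean of the 2 libraries. Il12rb1 separates all 4 groups, from 1.52 CPM in WT Kupffer cells to 17.7 CPM in TG Kupffer cells on average, while Ebi3 stays between 34.2 and 49.5 CPM in every library.

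The upstream sequences of Il12b, Il12rb2 and Ifng are shown because, Il12a apart, these 3 members had the largest fitted differences between the WT subsets. RefSeq (GRCm38.p6) gave an upstream region for 7 of the 10 genes, and the 250 bases before the start are printed 5′ to 3′ on the strand of the gene. The motifs searched on both strands, set in capitals where found, were the interferon gamma-activated site TTCNNNGAA, the interferon-stimulated element (GAAA, any 2 bases, GAAA), and the κB motif (GGG, any 5 bases, CC); the AP-1 motif TGANTCA and the T-box motif TCACACC were searched too and lay in none of the members' windows.
Il12b, chr11:44399813-44400062, plus strand: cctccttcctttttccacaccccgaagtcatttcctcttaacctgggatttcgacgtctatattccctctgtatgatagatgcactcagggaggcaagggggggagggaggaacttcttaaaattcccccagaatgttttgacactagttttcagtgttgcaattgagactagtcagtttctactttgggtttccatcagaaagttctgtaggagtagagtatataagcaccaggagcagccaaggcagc
Il12rb2, chr6:67376189-67376438, minus strand: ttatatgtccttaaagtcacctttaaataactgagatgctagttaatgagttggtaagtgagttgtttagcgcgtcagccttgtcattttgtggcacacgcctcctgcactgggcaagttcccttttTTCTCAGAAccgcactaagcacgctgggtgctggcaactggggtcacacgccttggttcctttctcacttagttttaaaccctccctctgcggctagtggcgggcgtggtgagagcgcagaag
Ifng, chr10:118440796-118441045, plus strand: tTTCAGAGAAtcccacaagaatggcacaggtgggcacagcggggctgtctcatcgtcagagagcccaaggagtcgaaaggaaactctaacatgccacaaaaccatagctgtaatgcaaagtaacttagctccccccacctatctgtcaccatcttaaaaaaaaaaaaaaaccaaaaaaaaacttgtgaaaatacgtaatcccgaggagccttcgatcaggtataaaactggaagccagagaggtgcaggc

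The interferon gamma-activated motif was found once in the Il12rb2 window, as TTCTCAGAA ending 114 bases before the start, and once in the Ifng window, as TTCAGAGAA ending 240 bases before it. It lies in 7.18% of 27025 gene promoters of the same length, so these matches are a description of the letters only. None of the searched motifs was in the Il12b window. The κB motif is held by 45.4% of all promoters and was present in those of Ebi3, Ifngr1 and Ifngr2, and in that of the later of the 2 starts of Il12a. The interferon-stimulated element, held by 3.04% of promoters, was in none of the windows of the members. The AP-1 and T-box motifs are held by 6.87% and 3.31% of promoters.

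Among the cytokine subunits, Il12b, the chain shared by IL-12 and IL-23 (chromosome 11, 44400063 to 44414033, GRCm38), was most abundant in MoM. The WT MoM libraries had 31.3 and 64.0 CPM of it, and the TG MoM libraries 20.3 and 41.3 CPM. In Kupffer cells it stood at 3.41 and 5.67 CPM in WT, at 2.87 CPM in TG replicate 1 and at 34.5 CPM in TG replicate 2. Only that last library reached the MoM range, so the 2 TG Kupffer libraries lay on either side of WT. In WT, MoM were above Kupffer cells without overlap (log2 fold change 3.39 ± 1.13, SE, edgeR adjusted p = 0.145; DESeq2 0.00707). In TG the same comparison gave 0.72 ± 1.03 (adjusted p = 0.692), and 3.30 (adjusted p = 0.055) without Kupffer TG replicate 2. For TG against WT in Kupffer cells the value was 2.04 ± 1.07 (adjusted p = 0.730) with both TG libraries and -0.61 without replicate 2. In MoM it was -0.63 ± 1.02 (adjusted p = 0.931).

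The sum of the dendritic cell markers and Il12b were both higher in MoM and in Kupffer TG replicate 2 than in the other Kupffer libraries. Among those other Kupffer libraries their order was opposite: TG replicate 1 had the highest marker sum and the lowest Il12b. The 10 marker genes summed to 1719 to 2838 CPM in MoM, to 426 CPM in Kupffer TG replicate 2 and to 73.3 to 101 CPM in the other 3 Kupffer libraries. None of these genes was at 0 in any library. The genes Ccr7, the homing receptor of migrating dendritic cells, and Fscn1, an actin-bundling protein of mature dendritic cells, stood at 23.5 and 127 CPM in Kupffer TG replicate 2. In the other Kupffer libraries they had at most 5.14 and 8.74 CPM. Not all of the list rose as much. Kmo stood at 2.36 CPM in Kupffer TG replicate 2 and at 2.20 CPM in Kupffer WT replicate 2. Clec9a stood at 63.9 CPM in Kupffer TG replicate 2 and at most at 39.4 CPM in the other Kupffer libraries. In TG MoM replicates 1 and 2 Clec9a stood at 39.4 and 41.5 CPM. Xcr1 stood at 4.59 CPM in MoM TG replicate 1, below its 5.93 CPM in Kupffer TG replicate 1. The part of other cells' RNA in the level of Il12b was not tested.

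Il12a, the chain that makes IL-12 out of Il12b (chromosome 3, 68690644 to 68698547), had a count of 0 in all 4 Kupffer libraries. It was found in each MoM library, at 0.957 and 1.06 CPM in WT and at 0.715 and 2.88 CPM in TG. Against 3 counts in each Kupffer library, its mean level was at least 9.19-fold higher in WT MoM and at least 16.1-fold higher in TG MoM. These bounds take each count as independent and would be lower if both mates of a read pair were counted. No test is given for these comparisons, since the gene passed the filter only through the group where it is high. The 2 genotypes overlapped in MoM (log2 fold change 0.83 ± 1.00, edgeR adjusted p = 0.903), and the sign turned to -0.49 without TG replicate 2.

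Il23a, the chain that makes IL-23 out of Il12b (chromosome 10, 128296139 to 128298752), was low everywhere. It stood between 0.527 and 1.84 CPM in 7 libraries and at 6.39 CPM in MoM TG replicate 2. That library was the richest in neutrophil markers and in monocyte markers. MoM TG replicate 1 held the lowest of the 8 values. The groups overlapped in all 4 comparisons. TG over WT in MoM had a log2 fold change of 1.20 ± 1.06 (edgeR adjusted p = 0.867), which turned to -1.50 without TG replicate 2.

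Levels of different genes were set side by side per kilobase of exon (GENCODE M21). In the 4 MoM libraries Il12b exceeded Il12a by 12.4 to 52.1 times, and in all 8 libraries it exceeded Il23a by 3.21 to 44.1 times. The shared chain was thus more abundant than either of its partners in each library, and no Il12a count was seen in Kupffer cells even where Il12b was at its Kupffer highest of 17.6 CPM per kb.

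**Figure D2:**
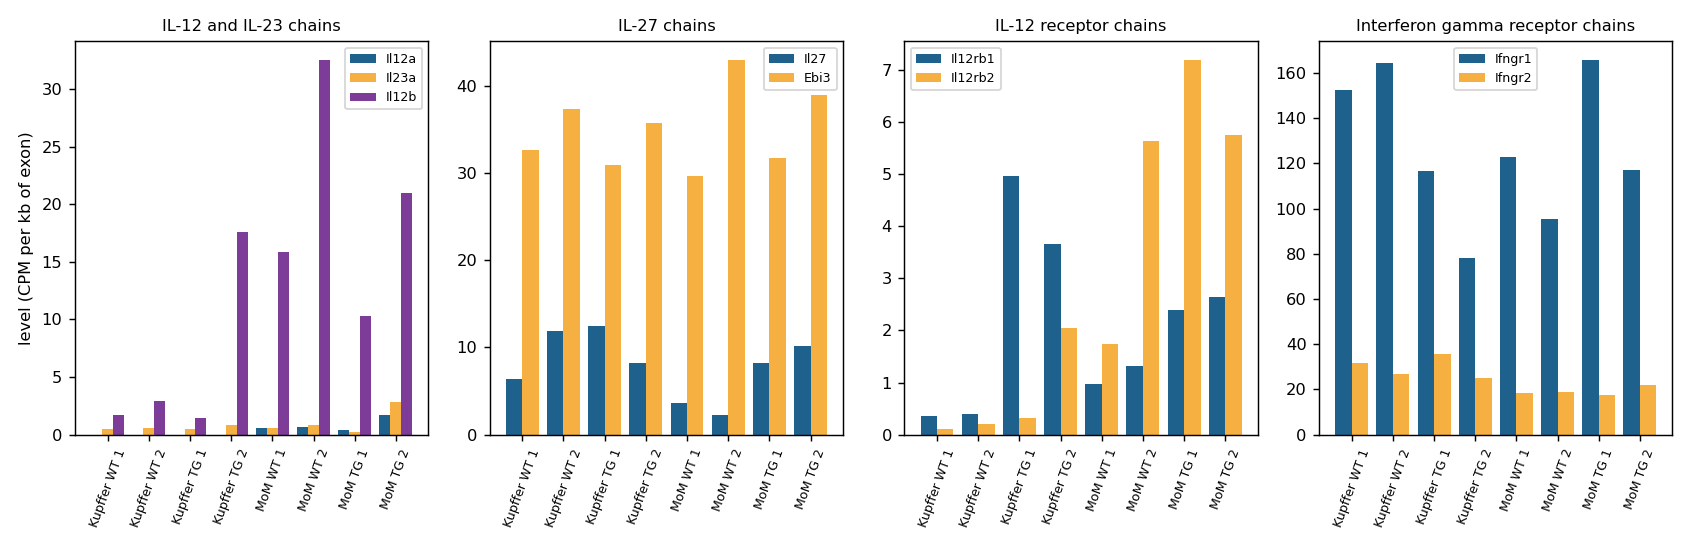
Level in CPM per kb of exon (vertical axis, linear from 0) in each of the 8 libraries (horizontal axis, group and replicate) for the chains that pair in IL-12 and IL-23, in IL-27, in the IL-12 receptor and in the interferon gamma receptor; each bar is 1 library. Il12b is above Il12a and Il23a in every library, though only 3.21 times above Il23a in Kupffer TG replicate 1. The order of the IL-12 receptor chains turns between Kupffer cells, where Il12rb1 is above Il12rb2, and MoM, where it is below.

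Il27 and Ebi3 behaved differently from each other, though they form 1 cytokine. Il27 (chromosome 7, 126589010 to 126594941) stood at 6.46 and 12.1 CPM in WT Kupffer cells and at 12.7 and 8.37 CPM in TG Kupffer cells. TG MoM had 8.43 and 10.3 CPM, and WT MoM had 3.67 and 2.25 CPM. The 2 WT MoM libraries lay below all the others. The log2 fold change was -1.65 ± 0.46 for MoM against Kupffer cells in WT (edgeR adjusted p = 0.112; DESeq2 0.0111) and 1.66 ± 0.46 for TG against WT in MoM (edgeR adjusted p = 0.755; DESeq2 0.0815). These comparisons share the WT MoM libraries. In Kupffer cells the genotypes overlapped (0.18 ± 0.45, adjusted p = 0.946), and in TG the subsets did too (-0.17 ± 0.45, adjusted p = 0.838). Of its 1021 exon bases, 103 are shared with Apobr on the other strand, whose level was 76.4 to 169 CPM.

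Ebi3 (chromosome 17, 55952640 to 55957022) ran from 34.2 to 49.5 CPM over all libraries. Its groups overlapped in all 4 comparisons, with log2 fold changes of -0.07 to 0.09 and SEs of 0.25. The group means were 38.4 ± 3.94 CPM in TG Kupffer cells, 40.4 ± 3.82 in WT Kupffer cells, 40.8 ± 5.91 in TG MoM and 41.9 ± 10.8 in WT MoM. Per kilobase, Ebi3 exceeded Il27 by 2.49 to 5.16 times in Kupffer cells and TG MoM, and by 8.25 and 19.5 times in WT MoM. An annotated antisense gene, Gm16712, covers 270 of the 1154 exon bases of Ebi3 and was itself at 11.1 to 21.8 CPM. The strand setting of the counting is not given in the sources used here, so reads of such overlapping genes cannot be told apart.

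Il12rb1, the receptor chain that IL-12 and IL-23 have in common (chromosome 8, 70808449 to 70821424), stood at 1.44 and 1.61 CPM in WT Kupffer cells and at 20.4 and 15.0 CPM in TG Kupffer cells. In MoM it stood at 3.95 and 5.41 CPM in WT and at 9.79 and 10.8 CPM in TG. No 2 groups overlapped, and the order ran from TG Kupffer cells over TG MoM and WT MoM down to WT Kupffer cells. Subset and genotype crossed: MoM were above Kupffer cells in WT and below them in TG. For TG against WT in Kupffer cells the fold change was 11.6 (log2 3.54 ± 0.35, edgeR adjusted p = 0.199), and only 1 of the 15254 genes had a smaller p. DESeq2 called the gene (adjusted p = 2.8e-14), and the authors' deposited table, which lists 179 genes, gives it a log2 fold change of 3.56 ± 0.45 with adjusted p = 2.9e-12.

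Without TG replicate 2, the library rich in endothelial and T cell RNA, the Il12rb1 log2 fold change was 3.79 (edgeR adjusted p = 0.321), and without TG replicate 1 it was 3.28 (adjusted p = 0.0237). Either fit has 1 TG Kupffer library. T cell markers (12 genes) summed to 65.0 and 342 CPM in TG replicates 1 and 2 and to 45.1 and 55.1 CPM in WT. Neutrophil markers (8 genes, 7 tested) summed to 29.9 and 13.5 CPM in TG and to 1.26 and 1.98 CPM in WT, and 7 of the 7 tested were higher in TG without overlap. Monocyte markers (10 genes) summed to 536 and 327 CPM in TG and to 331 and 258 CPM in WT, and 7 of 10 were higher in TG without overlap. Of all genes, 16.7% were. In TG Kupffer cells the neutrophil and monocyte sums, like Il12rb1, were higher in replicate 1 than in replicate 2. Most of the monocyte sum was Plac8, at 348 CPM in replicate 1 and 176 CPM in replicate 2. Of the monocyte list, Ccr2, Ly6c2, S100a4, Napsa and Cx3cr1 were higher in replicate 2, and the other genes in replicate 1. In TG MoM replicates 1 and 2 the neutrophil sums were 67.3 and 3520 CPM and the monocyte sums 2331 and 4317 CPM. Il12rb1 stood there at 9.79 and 10.8 CPM, below both TG Kupffer libraries. The part of these cells' RNA in the level of Il12rb1 was not tested. In MoM, TG stood above WT (log2 1.14 ± 0.32, edgeR adjusted p = 0.755). The genotype effect in MoM was 2.40 ± 0.45 log2 units smaller than in Kupffer cells (adjusted p = 0.626; DESeq2 0.0169). MoM against Kupffer cells gave 1.62 ± 0.32 in WT (edgeR adjusted p = 0.073; DESeq2 0.00233) and -0.78 ± 0.31 in TG (edgeR adjusted p = 0.184).

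Il12rb2, the signalling chain of the IL-12 receptor (chromosome 6, 67291318 to 67376188), followed another order. TG MoM had 27.3 and 21.8 CPM of it and WT MoM had 6.58 and 21.4 CPM. TG Kupffer cells had 1.21 and 7.74 CPM, and WT Kupffer cells 0.395 and 0.784 CPM. The WT MoM and TG Kupffer libraries overlapped, and the other neighbours in this order did not. Between subsets the log2 fold change was 4.56 ± 1.07 in WT (edgeR adjusted p = 0.0902; DESeq2 5.6e-05) and 2.45 ± 0.95 in TG (edgeR adjusted p = 0.175; DESeq2 0.0469). Between genotypes it was 2.92 ± 1.01 in Kupffer cells (edgeR adjusted p = 0.730) and 0.81 ± 0.91 in MoM (adjusted p = 0.892). The value in Kupffer cells was 1.09 without TG replicate 2, and that in MoM was 0.20 without WT replicate 1. Serbp1 lies on the other strand and shares 1519 of the 3794 exon bases. It stood at 187 to 336 CPM, and Il12rb2 was at 0.395 CPM in a library with 221 CPM of Serbp1.

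Per kilobase, Il12rb1 exceeded Il12rb2 in each Kupffer library, by 1.80 to 3.36 times in WT and in TG replicate 2 and by 15.6 times in TG replicate 1. In MoM it was below Il12rb2 in each library, at 0.233 to 0.555 of its level.

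Ifng (chromosome 10, 118441046 to 118445892), a cytokine made chiefly by T and NK cells, was found in all libraries. WT Kupffer cells had 0.718 and 0.448 CPM of it and TG Kupffer cells 2.42 and 31.9 CPM. WT MoM had 3.40 and 15.6 CPM, and TG MoM 39.7 and 29.6 CPM. TG libraries lay above WT in both subsets, but within TG Kupffer cells and within WT MoM the replicates were several-fold apart. For TG against WT the log2 fold change was 4.87 ± 1.37 in Kupffer cells (edgeR adjusted p = 0.730; DESeq2 0.00246) and 1.86 ± 1.17 in MoM (edgeR adjusted p = 0.819). The authors' deposited table gives 4.89 ± 1.18 with adjusted p = 0.00412. Without TG replicate 2 the value in Kupffer cells was 2.09 (edgeR adjusted p = 1.00), and without TG replicate 1 it was 5.73 (adjusted p = 0.0485). In MoM it was 3.35 without WT replicate 2 and 1.15 without WT replicate 1. Of the 1295 exon bases of Ifng, 336 are shared with Gm49751 on the same strand, which is not among the counted symbols.

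Between subsets, Ifng had a log2 fold change of 4.02 ± 1.33 for MoM over Kupffer cells in WT (edgeR adjusted p = 0.144; DESeq2 0.00442) and of 1.01 ± 1.15 in TG (edgeR adjusted p = 0.616). The WT value was 2.53 without MoM WT replicate 2 and 4.72 without MoM WT replicate 1. The TG value was 3.74 when replicate 2 of the TG Kupffer cells was left out and 0.09 when their replicate 1 was.

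In TG Kupffer cells and in WT MoM, the sums of T and NK cell markers, Ifng and Il12rb2 were all higher in replicate 2 than in replicate 1. Klrk1 of the NK list went the other way in TG Kupffer cells, at 73.4 CPM in replicate 1 and 57.8 CPM in replicate 2. Across subsets Il12rb2 did not follow the T cell markers. Kupffer TG replicate 2 had the highest T cell sum but 7.74 CPM of Il12rb2, against 27.3 and 21.8 CPM in TG MoM. The 12 T cell markers summed to 45.1 to 55.1 CPM in WT Kupffer cells, 65.0 and 342 CPM in TG Kupffer cells, 78.2 and 222 CPM in WT MoM and 182 to 266 CPM in TG MoM. The 10 NK and innate lymphoid markers summed to 70.4 to 82.9 CPM, 97.6 and 404 CPM, 101 and 475 CPM, and 490 to 729 CPM in the same groups. By this NK sum the libraries ran in the same order as by Il12rb2, except that the WT Kupffer libraries changed places. For TG against WT in Kupffer cells 12 of 12 T cell and 10 of 10 NK markers had positive log2 fold changes, with 0 called by edgeR and 4 of each list at an unadjusted p below 0.05. Of the defining markers, Ncr1, the NK receptor NKp46, and Klra8, an NK receptor of the Ly49 family, had a count of 0 in Kupffer WT replicate 1. Cd3e, a chain of the T cell receptor complex, stood at 1.89 CPM in Kupffer TG replicate 1 and at 23.7 CPM in replicate 2. The part of T and NK cell RNA in the levels of Ifng and Il12rb2 was not tested.

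**Figure D3:**
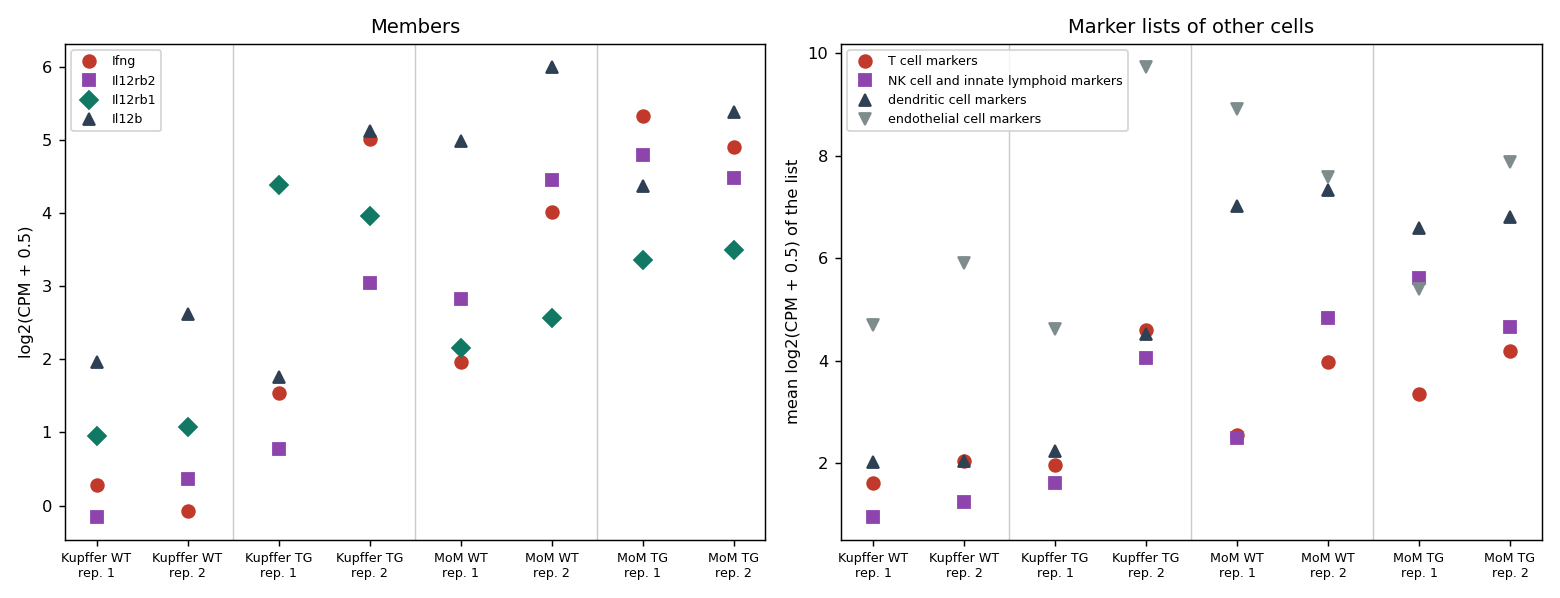
Left, log2(CPM + 0.5) of Ifng, Il12rb2, Il12rb1 and Il12b in each library; right, the mean log2(CPM + 0.5) of 4 marker lists in the same libraries (horizontal axis, group and replicate). In TG Kupffer cells and in WT MoM, replicate 2 is above replicate 1 for Ifng, Il12rb2 and the means of the T and NK lists. Kupffer TG replicate 2 has the highest T cell marker level, yet its Il12rb2 is below that of both TG MoM libraries. Its NK marker level is below that of both TG MoM libraries too. Il12rb1 is high in both TG Kupffer libraries.

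The receptor for interferon gamma was abundant in all libraries. Ifngr1, its ligand-binding chain (chromosome 10, 19591949 to 19610229), stood at 434 and 467 CPM in WT Kupffer cells and at 333 and 223 CPM in TG Kupffer cells. WT MoM had 349 and 271 CPM, and TG MoM 472 and 334 CPM. TG Kupffer libraries lay below WT Kupffer libraries (log2 fold change -0.70 ± 0.30, edgeR adjusted p = 0.730), and the value was -0.39 without TG replicate 2. In MoM the genotypes overlapped (0.38 ± 0.30, adjusted p = 0.854). MoM were below Kupffer cells in WT (-0.54 ± 0.30, adjusted p = 0.292) and above them in TG (0.54 ± 0.30, adjusted p = 0.325). The genotype effect in MoM was 1.08 ± 0.43 log2 units above that in Kupffer cells (edgeR adjusted p = 0.626).

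Ifngr2, the signalling chain (chromosome 16, 91547072 to 91565623), split by subset and not by genotype. It stood at 120 and 101 CPM in WT Kupffer cells and at 135 and 95.0 CPM in TG Kupffer cells, and at 69.7 and 70.2 CPM in WT MoM and 66.7 and 83.0 CPM in TG MoM. All 4 Kupffer libraries were above all 4 MoM libraries. The log2 fold change of MoM against Kupffer cells was -0.66 ± 0.24 in WT (edgeR adjusted p = 0.160) and -0.62 ± 0.24 in TG (adjusted p = 0.172), and that of TG against WT was 0.06 ± 0.24 in Kupffer cells and 0.10 ± 0.24 in MoM. Per kilobase, Ifngr1 exceeded Ifngr2 by 3.10 and 3.26 times in TG Kupffer cells and by 4.80 to 9.35 times in the other 6 libraries.

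Counted by separation of the libraries, 3 members were higher in TG than in WT Kupffer cells without overlap (Il12rb1, Il12rb2 and Ifng), where 16.7% of all genes were, and 1 was lower (Ifngr1), against 17.7% of all genes. In MoM, 4 were higher in TG (the same 3 genes and Il27) against 19.2% of all genes, and none was lower against 20.0%. Between subsets in WT, Il12a set apart, 4 of the other 9 members were higher in MoM (Il12b, Il12rb1, Il12rb2 and Ifng) against 38.5% of all genes, and 3 were lower (Il27, Ifngr1 and Ifngr2) against 29.7%. In TG, 2 of the 9 were higher in MoM (Il12rb2 and Ifngr1) against 29.1%, and 2 were lower (Il12rb1 and Ifngr2) against 23.8%. At so few genes such counts differ from the shares of all genes by about 2 members at most, and nothing is read from them. The genotype comparisons and the subset comparisons share libraries, so their counts are not independent of each other.

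**Figure D4:**
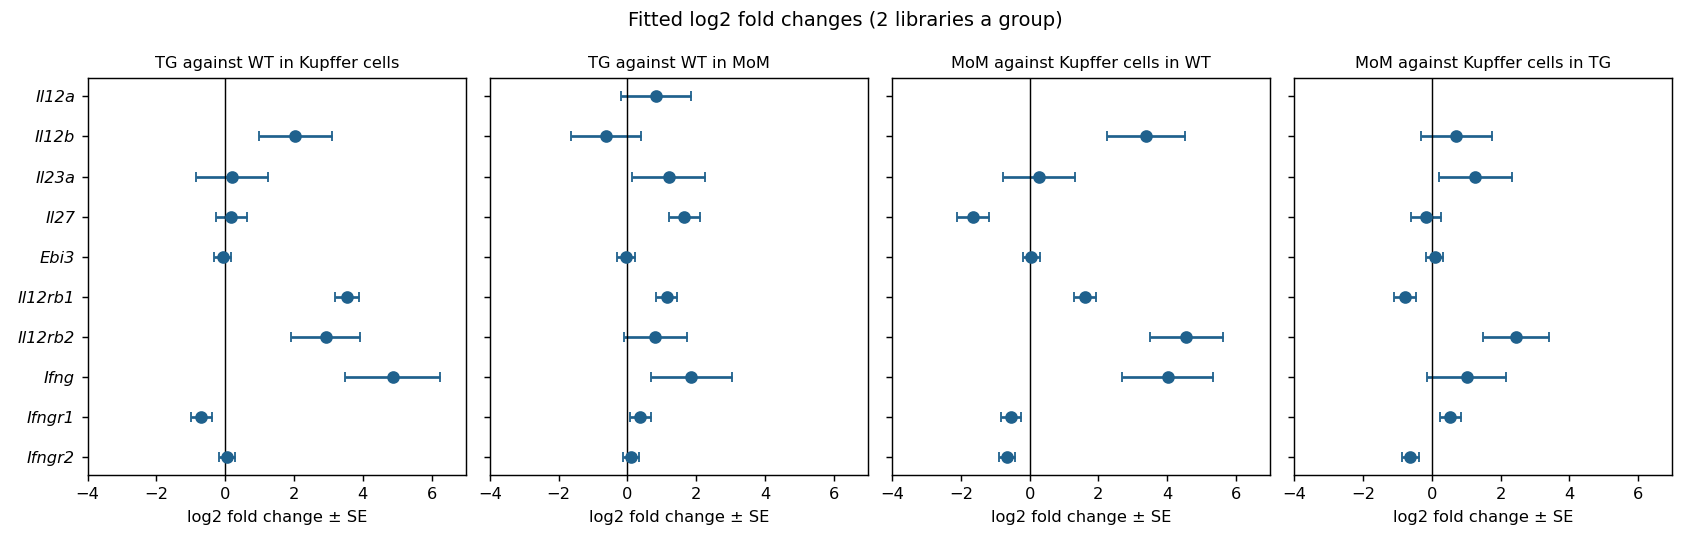
Fitted log2 fold change (horizontal axis; points) with its SE (bars) of each gene (vertical axis) in the 4 comparisons of 2 groups; Il12a is left out where Kupffer libraries, all at 0, enter. Il12rb1 in Kupffer cells has a narrow bar at 3.54 ± 0.35, whereas Ifng and Il12rb2 have SEs of 0.91 to 1.37.

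The other genes of the pathway were taken from 4 lists, chosen with earlier results of these data known, so counts beside the shares of all genes only describe. The lists hold 49 genes in all, of which 49 were tested. Of these, 0 were called for TG against WT in Kupffer cells and 0 in MoM by edgeR (19 and 11 at an unadjusted p below 0.05, where 5.94% and 6.47% of all genes were). DESeq2 called 12 and 4, all of them higher in TG, where it called 1.89% and 1.00% of all genes. For MoM against Kupffer cells 1 was called in WT and 2 in TG.

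Among receptor partners and signalling genes, Jak2, the kinase bound to Il12rb2 and Ifngr2, rose in MoM in both genotypes. It had 90.9 ± 5.72 CPM in WT Kupffer cells and 444 ± 171 CPM in WT MoM (log2 fold change 2.29 ± 0.32, edgeR adjusted p = 0.0382), and 108 ± 16.6 and 565 ± 31.0 CPM in TG (2.39 ± 0.32, adjusted p = 0.0308). The Jak2 call in WT ended without WT Kupffer replicate 1, WT Kupffer replicate 2, either TG MoM library or MoM WT replicate 2, with log2 fold changes of 1.83 to 2.33. In TG it ended without Kupffer TG replicate 1 or either library of WT Kupffer cells or TG MoM, with values of 2.21 to 2.45. Stat4, which carries the IL-12 signal, and Tbx21, the T-bet factor of interferon gamma-producing lymphocytes, stood at 0.898 to 1.34 and 0.359 to 1.57 CPM in WT Kupffer cells. In Kupffer TG replicate 1 they had 1.10 and 2.61 CPM and in replicate 2 they had 15.4 and 17.6 CPM, the same unequal pair of libraries as for Ifng. Il23r, the second chain of the IL-23 receptor, was at 0 in all Kupffer libraries and reached at most 0.579 CPM in MoM.

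Among inducers of interferon gamma, Il18, a cytokine that acts together with IL-12, fell in TG MoM against TG Kupffer cells, from 46.3 ± 5.62 to 9.90 ± 2.98 CPM (log2 fold change -2.22 ± 0.39, edgeR adjusted p = 0.0476). That call ended with the replicate number as a block (adjusted p = 0.0594) and without Kupffer TG replicate 1 or either library of WT Kupffer cells or TG MoM (-1.94 to -2.57). In WT Kupffer cells it stood at 24.2 and 26.7 CPM, below both TG Kupffer libraries (0.86 ± 0.38, adjusted p = 0.730). Il18r1, a chain of the IL-18 receptor, stood at 2.93 and 14.2 CPM in WT MoM and at 0.646 and 1.05 CPM in WT Kupffer cells (3.33 ± 0.95, edgeR adjusted p = 0.115). The list of inducers had 6 of 8 genes positive for TG against WT in each subset.

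Among regulators, Irf1, a transcription factor induced by interferon gamma, stood at 574 and 548 CPM in TG and 346 and 320 CPM in WT Kupffer cells (log2 fold change 0.75 ± 0.21, edgeR adjusted p = 0.730), and at 502 and 545 CPM in TG and 342 and 380 CPM in WT MoM (0.54 ± 0.21, adjusted p = 0.755). Socs1, an inhibitor of the interferon gamma receptor, stood at 25.7 and 66.1 CPM in TG and at 16.3 and 6.79 CPM in WT Kupffer cells (1.99 ± 0.56, adjusted p = 0.730). Nfil3 stood at 128 and 45.6 CPM in TG and at 34.3 and 11.3 CPM in WT Kupffer cells (1.93 ± 0.68, adjusted p = 0.730).

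Among targets of interferon gamma, 20 of 20 had positive log2 fold changes for TG against WT in Kupffer cells, with a median of 1.59 where the median of all genes was 0.03. The libraries of 17 of them were higher without overlap, as were those of 16.7% of all genes. None was called by edgeR, 14 had an unadjusted p below 0.05 (5.94% of all genes did), and the smallest p belonged to Gbp4 (1.88 ± 0.31), Gbp5 (1.56 ± 0.28) and Tgtp1 (1.87 ± 0.35), GTPases of cell-autonomous defence. In MoM 16 of 20 were positive with a median of 0.72 (all genes -0.04), the libraries of 11 were higher without overlap (19.2% of all genes), and the smallest p belonged to Gbp5 (1.70 ± 0.28), Nlrc5, the activator of MHC class I genes (1.19 ± 0.20), and Gbp4 (1.22 ± 0.31). The 3 MHC class II genes of the list (H2-Aa, H2-Ab1 and H2-Eb1), which present antigen to helper T cells, summed to 15393 CPM in Kupffer TG replicate 1 and 11807 CPM in replicate 2, against 4564 and 4916 CPM in WT. The other 17 targets summed to 3410 and 5203 CPM in TG and to 1615 and 1654 CPM in WT. Both sums were higher in each TG library than in WT, and the class II genes were higher in replicate 1 and the other targets in replicate 2. Cxcl9, which attracts T cells, stood at 125 CPM in TG replicate 1 and at 858 CPM in replicate 2. The target list was chosen with earlier results of these data known, so its counts beside the shares of all genes only describe. They include Ido1, which stood at 0.0359 and 0 CPM in WT Kupffer cells.

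**Figure D5:**
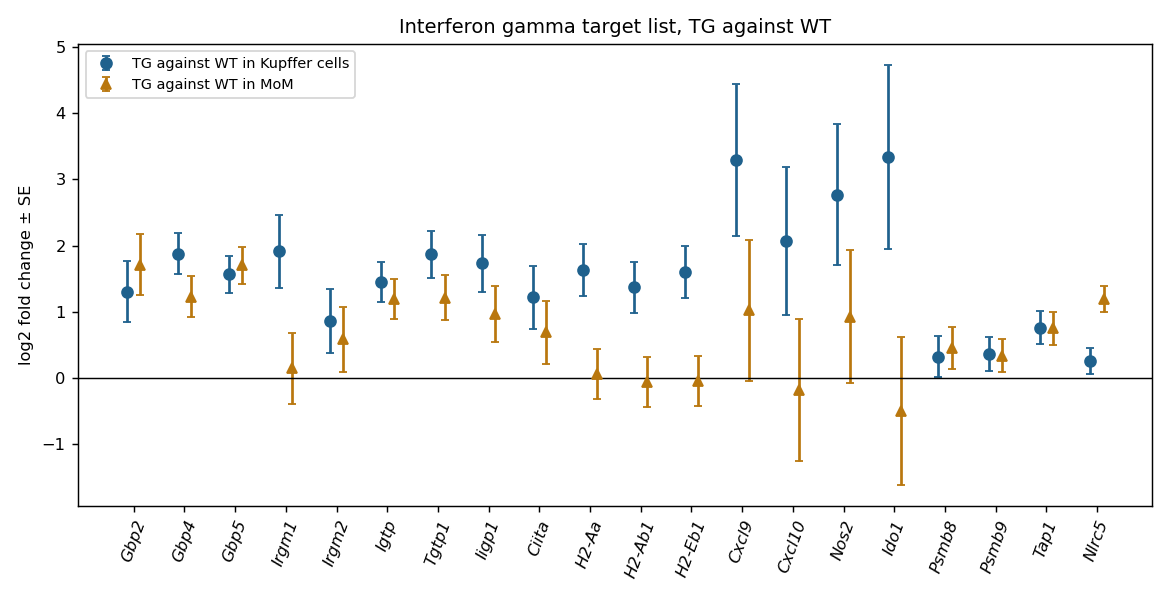
Fitted log2 fold change for TG against WT (vertical axis; points) with its SE (bars) of the 20 interferon gamma targets (horizontal axis) in Kupffer cells (circles) and MoM (triangles). All 20 values for Kupffer cells are above 0, as are 16 of those for MoM. The list was chosen with earlier results of these data known.

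For each member the 3 genes with the most similar profile were found by Pearson's r of log2(CPM + 0.5) over the 8 libraries, among 12431 or 12432 genes. All values in a pair come from the same libraries, and with so many genes searched over 8 libraries high values arise readily, so they only describe. Ifng was most like Gzma (r = 0.991), Klre1 (0.984) and Gzmb (0.981); Gzma and Gzmb encode granzymes of cytotoxic lymphocytes and Klre1 an NK cell receptor. Gzma stood at 5.63 CPM in Kupffer TG replicate 1 and at 95.2 CPM in replicate 2, the same split as for Ifng. Il12rb2 was most like Ikzf3 (0.995), a lymphocyte transcription factor, Scml4 (0.992) and Slain1 (0.992). Il12b was most like Csf1 (0.990), the macrophage growth factor, Pdlim7 (0.987) and Prkar1a (0.987). Il12rb1 was most like Gpnmb (0.967), a glycoprotein of lipid-laden macrophages, Fam20c (0.964) and Mad2l2 (0.946). Gpnmb stood at 17.5 and 19.6 CPM in TG and at 3.45 and 2.69 CPM in WT Kupffer cells. Il27 was most like Msrb1 (0.953), and Ifngr1 was most like Gmip (0.969).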

How the data were processed

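Per the labels, RNA was polyadenylated RNA of liver macrophages, and per the submitters' processing notes STAR 2.5.2b and the build mm10 were used. The read counter is not given in the sources used here, nor is its annotation or strand setting. Each library's deposited file holds raw counts, 1 whole number per gene symbol and library, with no normalization by the authors. Between 64.6% and 67.4% of counts below 30 were even, a pattern that arises when both mates of a read pair are counted, so counts may overstate independent fragments. The authors also deposited a table of 179 genes headed TG against WT, with no cell type given. Per the file headers, its columns are the mean normalized count, the log2 fold change and its standard error, the test statistic (a score), the p-value and the adjusted p-value. The mean of 179 of 179 genes was matched within 1% by the 4 Kupffer libraries and of 0 by the 4 MoM libraries, and the table is therefore quoted with the Kupffer comparison.

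The 8 libraries were fitted together as 4 groups in edgeR 4.0.16 (R 4.3.3): filterByExpr, which left 15254 genes, TMM normalization and the two-sided quasi-likelihood F-test, with Benjamini-Hochberg adjustment over all genes. SEs were taken as the log2 fold change over the square root of F. The common biological coefficient of variation was 0.507. On simulated counts with 14864 genes tested, the comparison of TG with WT in Kupffer cells recovered 1 of 50 genes with a 2-fold change, 22 of 50 with a 4-fold change and 33 of 50 with an 8-fold change. The simulated spread followed the fitted trend alone, without differences between genes of the same level, so recovery in the real libraries may be lower. DESeq2 1.42.0 served as an alternative. Positions and exon lengths came from GENCODE M21, in which all 10 members were found by symbol. Whether it matches the authors' annotation is not known. The members and gene lists were chosen with earlier results of these data known. By rule, all members were named, and up to 3 genes of each pathway list per comparison with the smallest p, of which those that bear on the members are given. Il23r, the partner of Il12rb1, was added after its values were seen. Python 3.11.15, pandas 2.3.3, numpy 2.4.6 and matplotlib 3.10.9 were used for tables and figures.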

Additional observations from a re-analysis of the deposited data

How the results depend on the processing

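No member was called by edgeR on all libraries, and the count of 0 held for TG against WT in MoM under every alternative run. For TG against WT in Kupffer cells 2 members (Il12rb1 and Ifng) were called with DESeq2, on all libraries or only the 4 compared, and 0 to 2 when 1 library was left out (2 without Kupffer TG replicate 1). For MoM against Kupffer cells in WT the count was 6 with DESeq2, 7 with DESeq2 on only the 4 libraries, 3 with edgeR on only the 4 libraries, 4 when Kupffer TG replicate 2 and MoM WT replicate 1, which carry much RNA of other cells, were both left out, and 0 to 4 when 1 library was left out. In TG it was 2 with DESeq2, 3 with DESeq2 on only the 4 libraries and 3 with that pair of libraries left out. For the difference of the genotype effects it was 1 with DESeq2. These counts of subset differences include Il12a, which is at 0 in all Kupffer libraries; without it DESeq2 on all libraries called 5 in WT and 1 in TG. Over all genes DESeq2 called 260, 141, 2864, 2580 and 47 genes in the 5 comparisons, where edgeR called 0, 0, 178, 381 and 0. With the replicate block the Jak2 call held in WT and TG (adjusted p = 0.0418 and 0.0402) and the Il18 call in TG ended (0.0594). Fitting only the 4 libraries ended both calls in TG (0.0885 for Jak2 and 0.100 for Il18).

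The labels do not say that replicate numbers pair the libraries. Deviations of same-numbered libraries correlated at 0.30 (genotypes, Kupffer), 0.08 (genotypes, MoM), -0.14 (subsets, WT) and 0.62 (subsets, TG) across genes. With the replicate block 0 members were called in each of the 5 comparisons, and all genes called numbered 0, 0, 234, 301 and 0. A crossed pairing of the 4 WT libraries, chosen after seeing the data, called 4 members and 2579 genes.

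Of 702 alternative values of a member's log2 fold change, 34 turned sign, none of them called, and the cause was not tested. Without both Kupffer TG replicate 2 and MoM WT replicate 1 the TG effect in Kupffer cells was -0.61 for Il12b and -0.24 for Il23a, and the difference of the genotype effects was -0.17 for Ebi3 and -0.26 for Ifngr2. With only the 4 libraries Ebi3 was at -0.014 between subsets in WT. Leaving out 1 library gave these ranges where the sign turned. TG against WT in Kupffer cells ran from -0.61 to 2.90 for Il12b, -0.24 to 0.54 for Il23a, -0.17 to 0.69 for Il27, -0.13 to 0.010 for Ebi3 and -0.25 to 0.33 for Ifngr2. In MoM it ran from -0.49 to 1.52 for Il12a, -1.50 to 2.09 for Il23a, -0.27 to 0.25 for Ebi3 and -0.065 to 0.25 for Ifngr2. MoM against Kupffer cells ran in WT from -0.24 to 0.29 for Ebi3 and -0.051 to 0.52 for Il23a. In TG it ran from -0.21 to 3.30 for Il12b, -1.43 to 2.16 for Il23a, -0.54 to 0.13 for Il27 and -0.069 to 0.23 for Ebi3. The difference of the genotype effects ran from -0.20 to 0.33 for Ebi3, -0.24 to 0.34 for Ifngr2 and -1.70 to 1.89 for Il23a.

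Groups of 2 libraries limit all tests, and the lowest values printed for a member, such as Il12rb2 in WT Kupffer cells, rest on 11 to 21 counts.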
